A study of Mus musculus with 16 samples.

Results

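The libraries described here are those titled GFP- that were sorted from olfactory mucosa. The S100a5-tauGFP mice had received pulses of isoamyl acetate or of filtered air. The libraries were taken by title, which gave 8 of the 16 arrays of the series, 4 odor and 4 vehicle. All mice were C57BL/6 and carried the reporter, so vehicle and odor groups share it. S100a5, the gene for which the reporter is named, encodes a calcium-binding protein of olfactory sensory neurons. The 24 mice, male and female and aged 7 to 12 weeks, were housed singly in chambers of clean air flowing at 3.1 L per minute for 40 hours. Stimulation began after 26 hours and consisted of pulses of 10 seconds every 20 minutes, of filtered air in the vehicle group and of isoamyl acetate, a fruity-smelling ester, in the odor group. Cells were dissociated and sorted by fluorescence from pools of 3 mice, so each replicate is a separate pool, and each pool also gave a library titled GFP+. RNA was measured on Clariom S arrays. All levels below are log2 signals, and folds are given for the called genes.

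The names of the sorts conflict. In all 16 samples the cell type field gives the GFP sign opposite to the title. S100a5 was higher in the libraries titled GFP- (16.14 to 16.95) than in those titled GFP+ (14.69 to 15.94). The libraries titled GFP- are therefore called the S100a5-high libraries here, and their gate is known only by title. Their mean over 23 markers of mature olfactory neurons ran from 15.63 to 15.80 with odor and from 15.65 to 15.77 with vehicle. Neutrophil markers averaged 5.44 to 6.32 with odor and 5.50 to 6.15 with vehicle, against 12.28 to 14.12 in the libraries titled GFP+. The median of the negative control probe sets lay between 5.30 and 5.67 on the 8 arrays, and 56.9% to 60.8% of the probe sets of an array were above it. Within both conditions, pools 1 and 2 had high levels of the Y-linked genes Kdm5d, Eif2s3y and Uty (6.07 to 11.30) and pools 3 and 4 low ones (2.63 to 4.24). The first principal component, with 29.8% of the variance, parted the same pools (-42.1 to -2.72 against 9.14 to 38.4). Which pools were male or female is not stated in the labels, and the split falls equally on odor and vehicle.

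An olfactory sensory neuron expresses a single odorant receptor gene out of a very large family. Odor binding raises cAMP, which opens a cation channel in the cilia, and repeated stimulation changes the transcription of a set of genes in the stimulated neuron, among them S100a5 and genes of adhesion and axon guidance molecules. In a sort for a reporter of such a gene, RNA of the receptors carried by stimulated neurons can become a larger share of the total, and the level of a receptor then depends on how many cells of its type are in the gate as well as on the RNA of each cell.

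The sequences upstream of the start are shown for the 3 genes with an odor call, defined below, that the RefSeq promoter table of build GRCm38.p6 holds, because 2 of these genes belong to a group known to follow neuronal activity and cAMP signalling acts through a short recognition sequence in promoters. Camk2n1 is the other gene with a call. Each run is the 250 bases before the annotated start, 5′ to 3′ on the gene's strand, with TGACG, the core of the recognition sequence of CREB factors, in capitals.
Pcdh10, chr3:45378148-45378397, + strand: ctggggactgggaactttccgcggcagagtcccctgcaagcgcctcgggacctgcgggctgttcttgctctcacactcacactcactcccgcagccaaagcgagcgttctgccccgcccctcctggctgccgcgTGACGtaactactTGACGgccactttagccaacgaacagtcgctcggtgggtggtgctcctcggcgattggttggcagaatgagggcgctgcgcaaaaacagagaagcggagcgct
Sema7a, chr9:57939862-57940111, + strand: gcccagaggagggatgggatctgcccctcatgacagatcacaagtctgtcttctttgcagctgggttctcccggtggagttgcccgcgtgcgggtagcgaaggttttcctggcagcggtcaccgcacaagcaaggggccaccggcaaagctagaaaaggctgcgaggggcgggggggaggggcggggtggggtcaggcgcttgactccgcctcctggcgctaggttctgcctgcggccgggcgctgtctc
Olfr170, chr16:19606667-19606916, - strand: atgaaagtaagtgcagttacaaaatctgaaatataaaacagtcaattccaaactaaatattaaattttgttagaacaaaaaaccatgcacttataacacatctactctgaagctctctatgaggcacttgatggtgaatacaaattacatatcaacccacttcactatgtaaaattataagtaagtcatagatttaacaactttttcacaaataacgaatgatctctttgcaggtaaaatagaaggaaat
TGACG was searched on both strands and occurred 2 times in the Pcdh10 window, 116 and 103 bases before the start, both on the gene's strand. The windows of Sema7a and Olfr170 held 0 matches, as did that of S100a5. Of all 32851 windows of this length in the table, 17.8% held TGACG on some strand, and the 8-base palindrome TGACGTCA, of which TGACG is the first part, was in 1.55%. That palindrome was in none of the 4 windows, and neither was TAATTA, a homeodomain core (4.84% of all windows). A match of this kind describes the letters only.

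Of 22206 probe sets, 4 were called between odor and vehicle in the S100a5-high libraries (0.0180%), with a call meaning an adjusted p under 0.05 from limma with Benjamini-Hochberg adjustment over all probe sets. All 4 were higher with odor, and 0 were lower. The 4 are Pcdh10, Olfr170, Camk2n1 and Sema7a. At an unadjusted p under 0.05, limma gave 383 higher (1.72%) and 350 lower (1.58%), together 3.30%. The differences spread about a median of -0.0011, with 49.7% of them above 0. The median standard error of a difference was 0.18, and the median 95% interval, which is not adjusted, reached 0.38 to each side. Changes smaller than that were mostly not detectable with 4 pools a side, and a call asked for more than an interval without 0. The smallest called difference was 0.93 (Sema7a, SE 0.14), and Olfr213 at 1.89 (SE 0.38) was not called. In the libraries titled GFP+ of the same pools, 2 probe sets were called between odor and vehicle (0.00901%) and 4.83% had an unadjusted p under 0.05.

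**Figure D1:**
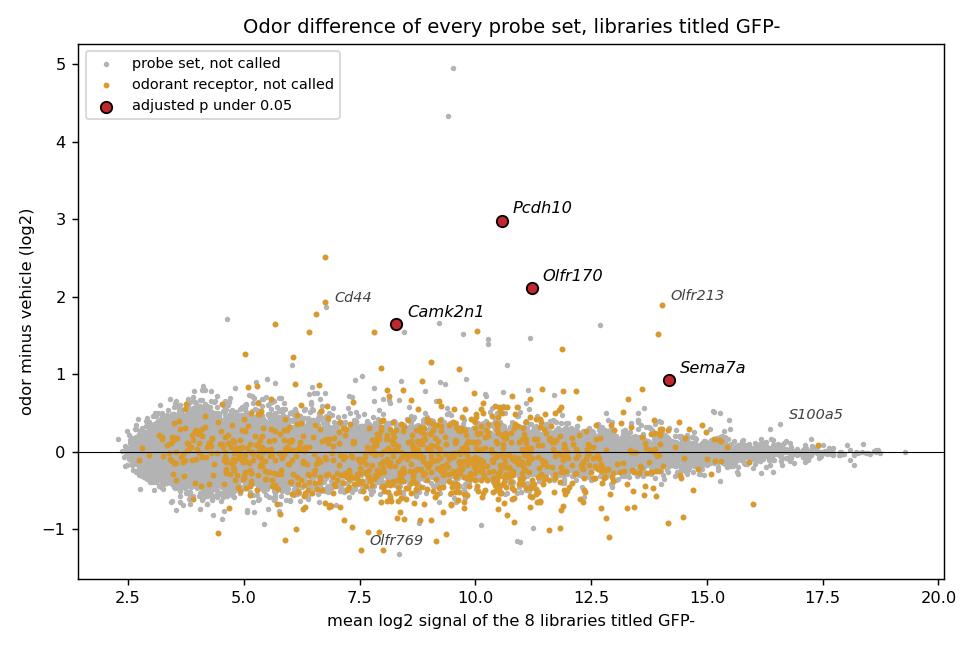
Odor minus vehicle difference (log2, vertical axis) of all 22206 probe sets against their mean log2 signal over the 8 libraries titled GFP- (horizontal axis), with odorant receptors in orange and the 4 called genes in red. The called genes lie between 0.93 and 2.98, and some receptors and unnamed probe sets with larger or similar differences were not called.

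Pcdh10, a protocadherin that mediates adhesion between like cells and is known to follow activity in olfactory neurons, had the largest difference among the called genes. Its signal was 12.14, 12.57, 11.61 and 11.91 in odor pools 1 to 4 and 9.17, 9.86, 7.99 and 9.26 in vehicle pools 1 to 4. Every odor library was above every vehicle library, and the vehicle libraries were the more scattered (9.07 ± 0.78 against 12.06 ± 0.40, SD, n = 4 each). The difference was 2.98 (SE 0.37, 95% interval 2.20 to 3.77, limma with Benjamini-Hochberg adjustment, adjusted p = 0.00332), a 7.91-fold higher signal. In the libraries titled GFP+ of the same pools Pcdh10 was also called, at 2.56 (limma, adjusted p = 0.0384), and the difference between the sorts' odor differences was 0.42 (adjusted p = 1.00).

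Camk2n1 encodes a small inhibitor of the calcium/calmodulin-dependent kinase CaMKII. It had signals of 9.30, 9.34, 8.71 and 9.08 with odor and 7.66, 7.54, 7.40 and 7.24 with vehicle. The groups did not overlap, with the lowest odor library in pool 3 and the highest vehicle library in pool 1. The difference was 1.64 (SE 0.17, 95% interval 1.28 to 2.01, limma, adjusted p = 0.000798), or 3.12-fold. Camk2n1 was called in the libraries titled GFP+ too (1.17, adjusted p = 0.0384), and the 2 differences were not called as unlike (0.48, adjusted p = 1.00).

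Sema7a, a membrane-anchored semaphorin that olfactory axons present to their partner cells in the olfactory bulb, had the smallest called difference. It measured 14.87, 14.78, 14.44 and 14.46 with odor and 13.81, 13.92, 13.49 and 13.63 with vehicle. The groups did not overlap, and in both conditions pools 1 and 2 were above pools 3 and 4. The difference was 0.93 (SE 0.14, 95% interval 0.63 to 1.23, limma, adjusted p = 0.0342), or 1.90-fold. This call was the least steady of the 4: the adjusted p rose to 0.601 in a fit of these 8 arrays alone and to 0.120 when arrays were centred on mature neuron markers, and of 8 fits that left out a library it held in 2, those without odor pool 3 or vehicle pool 2 (adjusted p from 0.0437 to 0.227 over the 8). In those 8 fits the difference itself ran from 0.85 to 1.00. In the libraries titled GFP+ the difference was 0.69 and was not called (adjusted p = 0.416), while the test of unlike differences gave 0.24 (adjusted p = 1.00).

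Olfr170, an odorant receptor gene, was the called receptor. It was higher with odor in the S100a5-high libraries and, without a call, lower with odor in the others. In the S100a5-high libraries it measured 12.55, 12.16, 12.30 and 12.08 with odor and 10.07, 9.65, 10.82 and 10.10 with vehicle. The odor libraries lay close together (SD 0.21, n = 4, against 0.48) and all above the vehicle libraries. The difference was 2.11 (SE 0.23, 95% interval 1.62 to 2.60, limma, adjusted p = 0.000854), or 4.33-fold. In the libraries titled GFP+ of the same pools it measured 9.69, 9.86, 9.97 and 10.12 with odor and 11.68, 11.20, 10.87 and 10.66 with vehicle. There every odor library was below every vehicle library, with a difference of -1.19 that was not called (limma, adjusted p = 0.416). The difference between the sorts' odor differences was 3.30 (SE 0.33, limma, adjusted p = 0.000416). It was the 1 call among 22206 probe sets for that comparison (0.00450%, with 2.94% at an unadjusted p under 0.05 in limma). That fit took all libraries as independent, although the 2 sorts come from the same pools. In sorted pools a greater number of Olfr170 cells in the gate and more Olfr170 RNA per cell cannot be told apart.

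**Figure D2:**
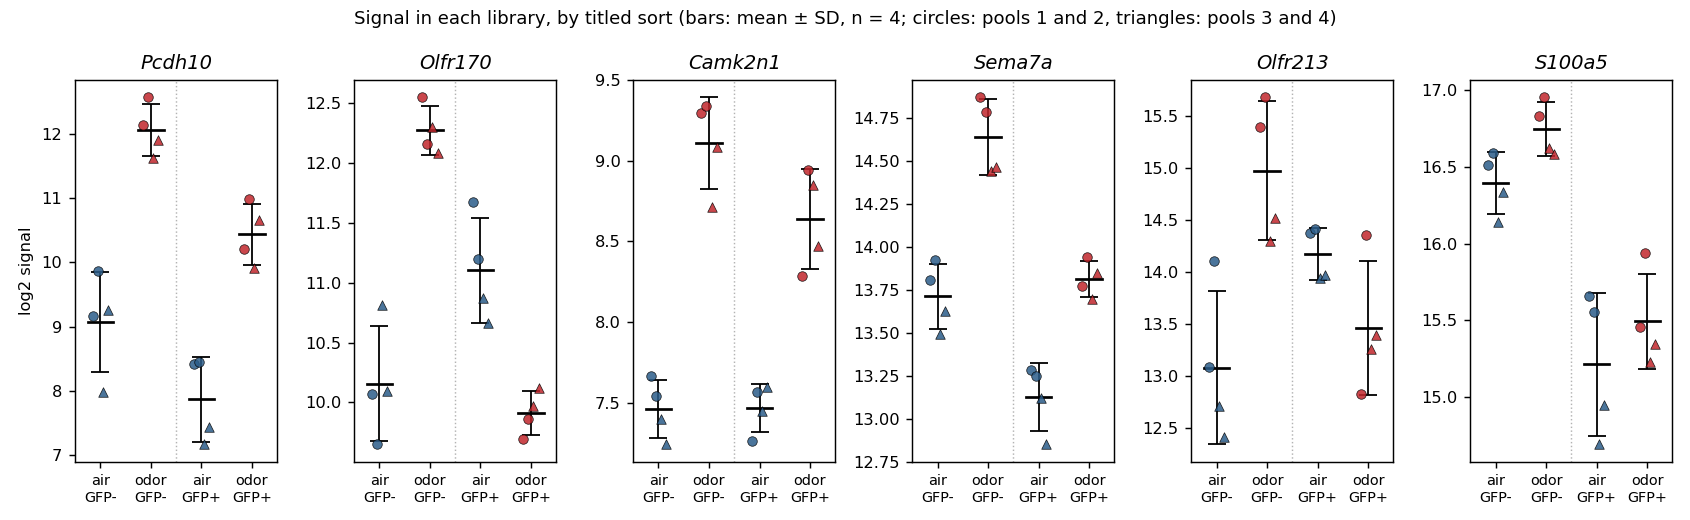
Log2 signal (vertical axes, 1 scale per gene) of the 4 called genes, Olfr213 and S100a5 in each library, by condition (air is the vehicle) and titled sort; points are pools, bars are mean ± SD, n = 4, circles pools 1 and 2 and triangles pools 3 and 4. Odor libraries titled GFP- lie above vehicle libraries titled GFP- for the 4 called genes and Olfr213, and for S100a5 the groups meet at 16.58 and 16.59, while Olfr170 runs the other way in the libraries titled GFP+.

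S100a5 itself, the gene behind the reporter, was not called. It measured 16.83, 16.95, 16.62 and 16.58 with odor and 16.51, 16.59, 16.14 and 16.33 with vehicle. The groups overlapped only in that odor pool 4 was just below vehicle pool 2. The difference was 0.35 (SE 0.21, 95% interval -0.08 to 0.79, limma, adjusted p = 1.00), and an exact two-sided permutation test of the 4 against 4 libraries gave p = 0.0571, with 0.0286 the smallest p that the 70 splits allow. Among pools with high Y-linked signal the difference was 0.34 and among those with low signal 0.37. There was no overlap in either set, each only 2 against 2 libraries. With the split as a term in the fit S100a5 was still not called (limma, adjusted p = 0.999).

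The calls were read against those pool sets. Pcdh10 differed by 2.83 among the pools with high Y-linked signal and by 3.13 among those with low signal, Camk2n1 by 1.71 and 1.57, Sema7a by 0.96 and 0.89, and Olfr170 by 2.49 and 1.73. With the split as a term in the fit, an alternative chosen after seeing the data, limma gave 5 calls: the same 4 genes (adjusted p from 0.000316 to 0.00186) and Olfr213. Fits on 1 pool set alone called 0 probe sets in either set, with 859 and 1269 probe sets at an unadjusted p under 0.05.

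Pcdh10, Camk2n1 and Sema7a are 3 of 14 measured genes known to rise with activity in olfactory neurons. The list was assembled with earlier results of these data known, so its count is no independent evidence. Its median difference was 0.29, with 11 of 14 above 0, beside a median of -0.0011 and 49.7% above 0 over all probe sets. Kirrel2, an adhesion molecule of olfactory axons, measured 15.39, 16.78, 14.76 and 14.68 with odor and 14.55, 15.41, 14.35 and 15.24 with vehicle. These groups overlapped widely, and its difference of 0.51 had a standard error of 0.56. Lrrc3b (0.28, SE 0.52), Pcp4l1 (0.29, SE 0.30) and Plxna1, a semaphorin receptor subunit (0.21, SE 0.27), had intervals that include 0. Among pools with high and low Y-linked signal, each 2 against 2 libraries, Kirrel2 differed by 1.10 and -0.08 and Lrrc3b by 0.81 and -0.24. Plxna1 differed by 0.46 and -0.05 and Pcp4l1 by 0.49 and 0.09 in the same sets. Plcxd3 and Rcan1 were also above 0 only in the high set, and Ptprn only in the low set. Lmo3 was under the median negative control in all 8 libraries. Of 6 genes known to fall with activity, none was called, 0 had an unadjusted p under 0.05 in limma, and the median was 0.02. Kirrel3, the adhesion molecule usually found opposite to Kirrel2, differed by -0.08 (SE 0.29).

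Axon guidance and adhesion genes as a wider list held 61 measured members. The 2 called were Pcdh10 and Sema7a, already described, and no other member passed an unadjusted p under 0.05. Of the 61, 17 were above 0, beside 49.7% of all probe sets, with a median of -0.08. Epha7, a receptor of ephrins, differed by 0.50 (SE 0.30). Of the 3 measured ephrin-A ligands, Efna5 differed by -0.17 (SE 0.12) and Efna3 by -0.11 (SE 0.13), while Efna1, at 0.31 (SE 0.18), was under the median negative control in all 8 libraries.

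Immediate-early genes, the transcription factors and regulators that neurons induce first after stimulation, gave 0 calls among 35 measured members. At an unadjusted p under 0.05 in limma 1 was higher and 0 lower, beside 1.72% and 1.58% of all probe sets. The median of the 35 was 0.13 and 27 of them were above 0, beside 49.7% of all probe sets. Klf6, a zinc finger factor, measured 9.53, 9.53, 9.68 and 9.90 with odor and 8.91, 9.31, 8.94 and 9.24 with vehicle, without overlap, a difference of 0.56 (limma, adjusted p = 1.00). Fos measured 10.25, 10.82, 10.16 and 11.07 with odor and 9.83, 9.82, 8.75 and 10.91 with vehicle. Vehicle pool 4 was above 3 of the odor libraries, and the difference of 0.75 had a standard error of 0.43. Fosb differed by 0.82 (SE 0.47), Nr4a1 by 0.79 (SE 0.60) and Btg2, an antiproliferative regulator, by 0.76 (SE 0.37). Genes linked to the cAMP and CREB pathway, Creb1, Crtc1 and Crtc2 among them, had 0 calls among 20, and 0 higher and 2 lower without adjustment. Of the 2 lower, Vgf was under the median negative control in all libraries of both conditions. The other was Creb3l1, a factor held in the endoplasmic reticulum membrane, at 11.97, 12.42, 12.29 and 11.57 with odor and 12.42, 12.59, 12.64 and 12.91 with vehicle. Odor pool 2 reached the lowest vehicle library, and the difference was -0.58 (limma, adjusted p = 1.00).

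The machinery of odor detection was measured at close to the same level in both conditions. Among 36 genes of the transduction cascade 0 were called, with 1 higher and 1 lower without adjustment and a median of -0.0065. The G protein subunit Gnal differed by -0.04 (SE 0.14), the adenylyl cyclase Adcy3 by 0.03 (SE 0.12), the channel subunits Cnga2 by 0.01 (SE 0.14) and Cnga4 by -0.13 (SE 0.11), and Omp, the marker protein of mature olfactory neurons, by -0.02 (SE 0.11). The 95% intervals of these 5 genes all include 0, and the widest reach is that of Cnga4 downward, -0.37, and of Cnga2 upward, 0.31. The 9 receptor chaperones and trafficking proteins had 0 calls and 0 at an unadjusted p under 0.05 in limma, with Reep6 at -0.37 as the member of smallest p. The 22 genes of receptor choice and neuronal identity had 0 calls and 1 without adjustment, Ehmt2, a histone methyltransferase, at 9.38, 9.69, 9.64 and 9.75 with odor and 9.30, 9.38, 9.23 and 9.35 with vehicle. Odor pool 1 was level with the highest vehicle library, and the difference was 0.30.

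Genes of excitability and output gave 0 calls in the lists examined. The 29 synaptic vesicle genes had 0 calls, 0 at an unadjusted p under 0.05 in limma and a median of -0.05. Of 51 voltage-gated channel genes 0 were called and 1 was higher without adjustment, Kcnn2, a calcium-activated potassium channel (13.22 to 13.85 with odor against at most 13.35 with vehicle, overlapping, a difference of 0.37). Cacnb2, a calcium channel subunit, differed by -0.29. The 36 primary cilium genes had 0 calls and 0 without adjustment. The 18 neuropeptide and secretory genes had 0 calls and 1 lower, Vgf, which was under the median negative control in all libraries of both conditions.

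**Figure D3:**
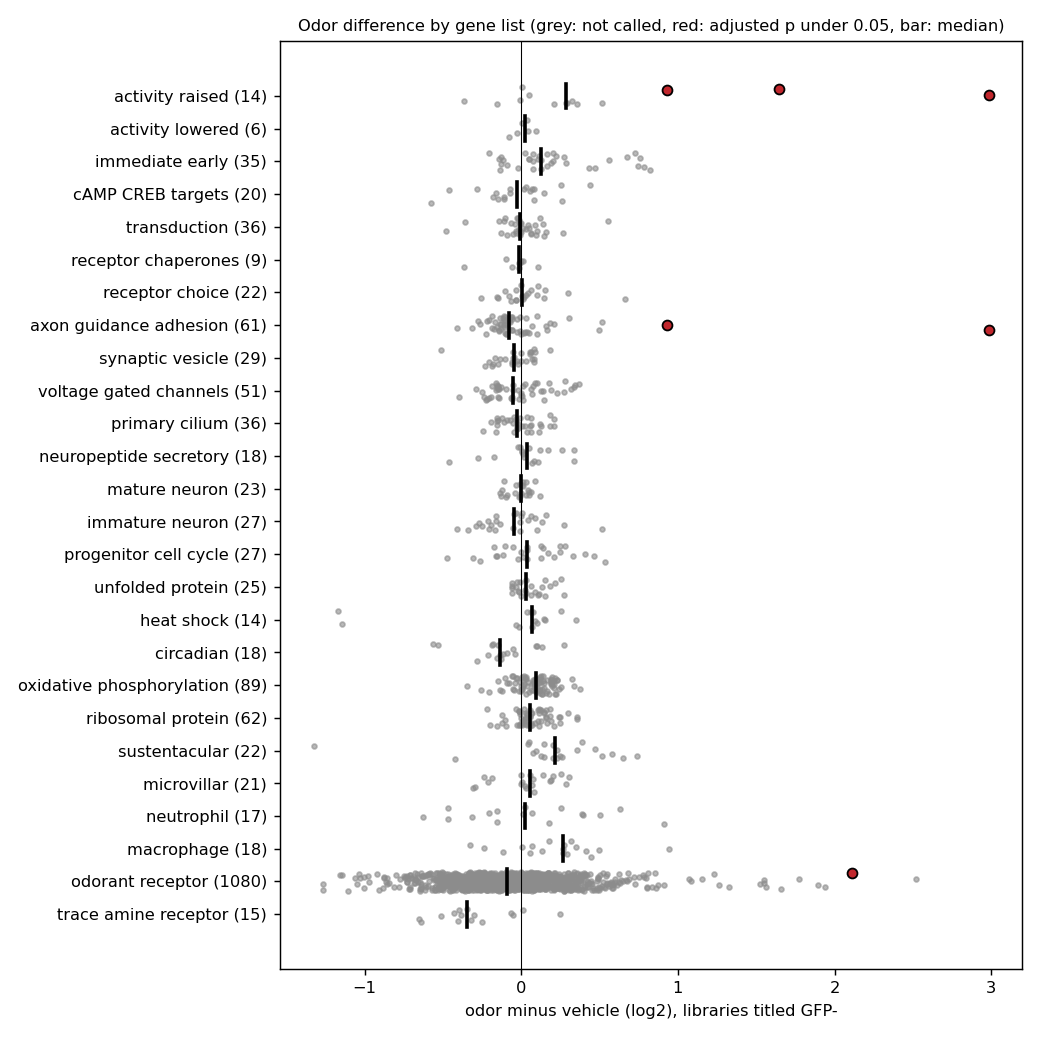
Odor minus vehicle difference (log2, horizontal axis) of every measured member of gene lists (vertical axis, number of members in brackets) in the libraries titled GFP-, called members in red and list medians as bars; lists share members. Red points appear in the activity-raised, axon guidance and odorant receptor lists only among those drawn, and the medians lie between -0.35 for trace amine receptors and 0.29 for activity-raised genes.

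Across 1080 odorant receptor genes the 1 call was Olfr170. At an unadjusted p under 0.05 there were 35 higher and 50 lower, 7.87% of the family beside 3.30% of all probe sets, and the median standard error of a receptor difference was 0.32 beside 0.18. The family's median difference was -0.09, with 426 of 1080 above 0, beside 49.7% of all probe sets. Replicates did not overlap for 14 receptors higher with odor and 23 lower, beside 1.09% and 0.982% of all probe sets, together 2.07%. Differences over 1 in size were found for 16 receptors upward and 11 downward. Over the array 31 probe sets (0.140%) were that far up and 14 (0.0630%) that far down, together 45 (0.203%), so 27 of the 45 were receptors and 12 more had no gene name.

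After Olfr170 the receptor of smallest p was Olfr213, which was not called. It measured 15.39, 15.68, 14.30 and 14.52 with odor and 13.09, 14.10, 12.71 and 12.41 with vehicle. The groups did not overlap, and pools 1 and 2 were above pools 3 and 4 in both. The difference was 1.89 (SE 0.38, limma, adjusted p = 0.420), beside -0.71 in the libraries titled GFP+. With the Y-linked split in the fit its adjusted p was 0.0347, and without vehicle replicate 2 it was 0.0486. Among pools with high and low Y-linked signal the differences were 1.94 and 1.85.

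The next receptors upward were Olfr1181, Olfr862, Olfr167, Olfr1008, Olfr654 and Olfr183, none of them called. Olfr167 measured 13.63, 14.05, 13.21 and 13.65 with odor against 12.94, 12.93, 12.92 and 13.03 with vehicle, without overlap and with unusually close vehicle libraries, a difference of 0.68. Olfr654 measured 10.67, 10.85, 10.89 and 10.75 against 10.06, 10.35, 10.17 and 10.26, also without overlap, a difference of 0.58. Olfr1181 (6.45, 7.26, 8.27 and 7.84 against 5.55, 6.32, 6.43 and 4.41) differed by 1.78, with 2 of its vehicle libraries above the median negative control. Olfr183 differed by 1.55, also with 2 of its vehicle libraries above the median negative control, and its odor pool 4 at 5.76 lay inside the vehicle range. Olfr862 stayed under that median in all libraries of both conditions. Olfr1008 did so in all vehicle libraries and was above it in 3 odor libraries. In the libraries titled GFP+ the differences were -0.38 for Olfr167, -0.51 for Olfr654, -0.25 for Olfr1181, -1.30 for Olfr183, 0.69 for Olfr1008 and 0.0074 for Olfr862. The difference between sorts was not called for any of them.

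The receptors of smallest p downward were Olfr1110, Olfr1238, Olfr868, Olfr1209, Olfr464, Olfr769, Olfr519 and Olfr780, and none was called. Olfr1238 measured 12.39, 12.88, 12.58 and 11.48 with odor and 13.13, 13.37, 13.24 and 14.01 with vehicle. Odor pool 4 was the lowest and vehicle pool 4 the highest, the groups did not overlap, and the difference was -1.11 (SE 0.28). Olfr769 (6.24, 7.65, 6.24 and 7.44 against 8.29, 7.85, 8.58 and 7.92) differed by -1.27 without overlap. Olfr1110 differed by -1.06, Olfr868 by -1.04, Olfr464 by -0.98, Olfr1209 by -0.73 and Olfr519 by -0.57, while Olfr780 was above the median negative control in 1 of 8 libraries. The other 7 had differences from -0.78 for Olfr1238 to -0.19 for Olfr1110 in the libraries titled GFP+ of the same pools. There 795 of the 1080 receptors were below 0, so a negative sign was common in that sort. Olfr947-ps1, a pseudogene by its symbol, was not counted among the 1080. It differed by -0.69 without overlap and without a call, and by 0.51 in the libraries titled GFP+.

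**Figure D4:**
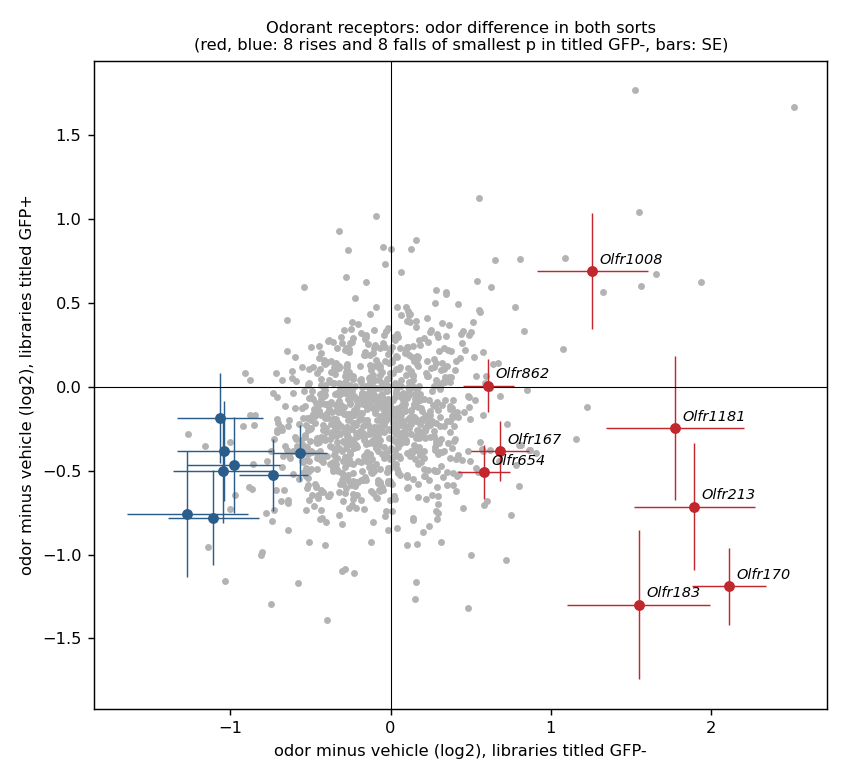
Odor minus vehicle difference (log2) of each odorant receptor in libraries titled GFP- (horizontal axis) and titled GFP+ (vertical axis), with the 8 upward (red) and 8 downward (blue) receptors of smallest p in libraries titled GFP- and SE bars. Olfr170 lies at 2.11 and -1.19, Olfr213 at 1.89 and -0.71 and Olfr183 at 1.55 and -1.30, while the 8 blue points are below 0 on both axes by up to -1.27 and -0.78; 795 of the 1080 receptors are below 0 on the vertical axis.

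Olfr170 lies on chromosome 16 of the RefSeq table among 36 measured receptor genes of that chromosome. This chromosome was examined because Olfr170 lies on it. Of the 36, 24 were above 0 (beside 49.7% of all probe sets) and the median was 0.14. An unadjusted p under 0.05 in either direction was found for 7 (19.4%, beside 7.87% of the family), and Olfr170 is one of these. Before it in gene order, Olfr167 differed by 0.68, Olfr168 by 0.33 (SE 0.31) and Olfr169 by 0.41 (SE 0.21). After it, Olfr171 differed by 0.81 (SE 0.38), Olfr172 by 0.11 (SE 0.31) and Olfr173 by -0.53 (SE 0.27). The next genes outward, Olfr166 and Olfr175, differed by 0.14 (SE 0.20) and 0.16 (SE 0.21). Only Olfr170 among the 36 was called. Neighbouring receptors can be alike in sequence, and cross-hybridisation between their probes was not tested.

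Trace amine-associated receptors, the other receptor family of these neurons, gave 0 calls among 15 and 0 higher and 1 lower at an unadjusted p under 0.05 in limma. Their median difference was -0.35 and 2 of 15 were above 0, beside 49.7% of all probe sets. Taar8a measured 5.53, 5.52, 6.65 and 5.89 with odor and 6.46, 5.69, 6.96 and 7.04 with vehicle, overlapping, a difference of -0.64 (SE 0.30). Taar6 differed by -0.65 (SE 0.36), Taar7b by -0.41 (SE 0.47) and Taar9 by -0.07 (SE 0.83). Of 319 vomeronasal receptor genes, 9 were above the median negative control in all 4 libraries of at least 1 condition, so the family is not described further.

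Outside the receptors, the gene of smallest p upward with non-overlapping groups and no call was Cd44, a hyaluronan receptor of basal and immune cells. It measured 7.54, 7.16, 7.70 and 8.39 with odor and 5.46, 5.76, 6.95 and 5.16 with vehicle. Vehicle pool 3 came nearest to the odor libraries, and 2 of the vehicle libraries were not above the median negative control. The difference was 1.86 (limma, adjusted p = 0.799). In the libraries titled GFP+ Cd44 measured 10.27 to 12.19. Cadm3, a synaptic adhesion molecule, measured 11.08, 10.92, 10.92 and 10.81 with odor and 10.30, 10.57, 10.28 and 10.25 with vehicle, without overlap, a difference of 0.58 that was not called. Of the downward genes of smallest p, Smyd5, a lysine methyltransferase, was above the median negative control in all 8 libraries. With odor it was only a little above that median (5.30 to 5.59 on the odor arrays). It measured 5.66, 5.75, 5.61 and 5.70 with odor and 6.01, 6.27, 6.18 and 6.36 with vehicle, a difference of -0.52 that was not called. Folh1, Dthd1, Frrs1l and Tcaf3 stayed under the median negative control in all 8 libraries, as did Vmn1r38 and Luzp4 among the upward genes.

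Markers of cells other than mature neurons were examined because a gate can hold them. Immature neuron markers had 0 calls among 27, with 1 lower at an unadjusted p under 0.05 in limma. Most of the 27 were below 0, among them Gap43, the growth-associated protein, at -0.41 (SE 0.25). Progenitor and cell cycle genes had 0 calls among 27 and 0 without adjustment. Sustentacular markers, of the supporting cells, had 0 calls among 22 and 1 higher without adjustment, Gstm1, a detoxifying enzyme, at 12.55, 11.44, 11.98 and 12.30 with odor and 11.63, 11.38, 10.97 and 11.34 with vehicle. Odor pool 2 lay inside the vehicle range, and the difference was 0.74. Of the 22, 20 were above 0, beside 49.7% of all probe sets, with a median of 0.22. Their mean level was 7.47 to 7.95 with odor and 7.21 to 7.56 with vehicle. Macrophage markers had 0 calls among 18 and 0 without adjustment, with 15 above 0, a median of 0.27 and mean levels of 5.34 to 5.98 and 5.09 to 5.87, close to the negative controls. Neutrophil markers had 0 calls among 17 and 1 higher without adjustment, Ngp, a granule protein, at 0.91. The part of these cells in the differences of Cd44 and other genes was not tested.

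Stress and metabolic genes gave no calls either. The 25 genes of the unfolded protein response had 0 at an unadjusted p under 0.05 in limma and a median of 0.03, and the 23 of apoptosis and oxidative stress had 0 as well. Heat shock genes had 0 among 14, and Hspa1a ranged widely within both groups (8.03 to 12.63 with odor, 7.59 to 13.50 with vehicle), so its difference of -1.17 had a standard error of 1.45. Oxidative phosphorylation genes had 0 calls among 89 with 1 lower without adjustment, 71 of 89 above 0 and a median of 0.09. Ribosomal protein genes had 0 calls among 62, 1 higher without adjustment and a median of 0.06. Circadian genes had 0 calls among 18 and 1 lower, Dbp, a clock output factor, at -0.53, with 4 of 18 above 0 and a median of -0.13. Over all probe sets 49.7% were above 0 and 3.30% had an unadjusted p under 0.05 in limma. In all, 3 of 41 lists held a called gene: the activity-raised, axon guidance and odorant receptor lists. These hold the 4 called genes already described, with Pcdh10 and Sema7a in 2 of them.

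**Figure D5:**
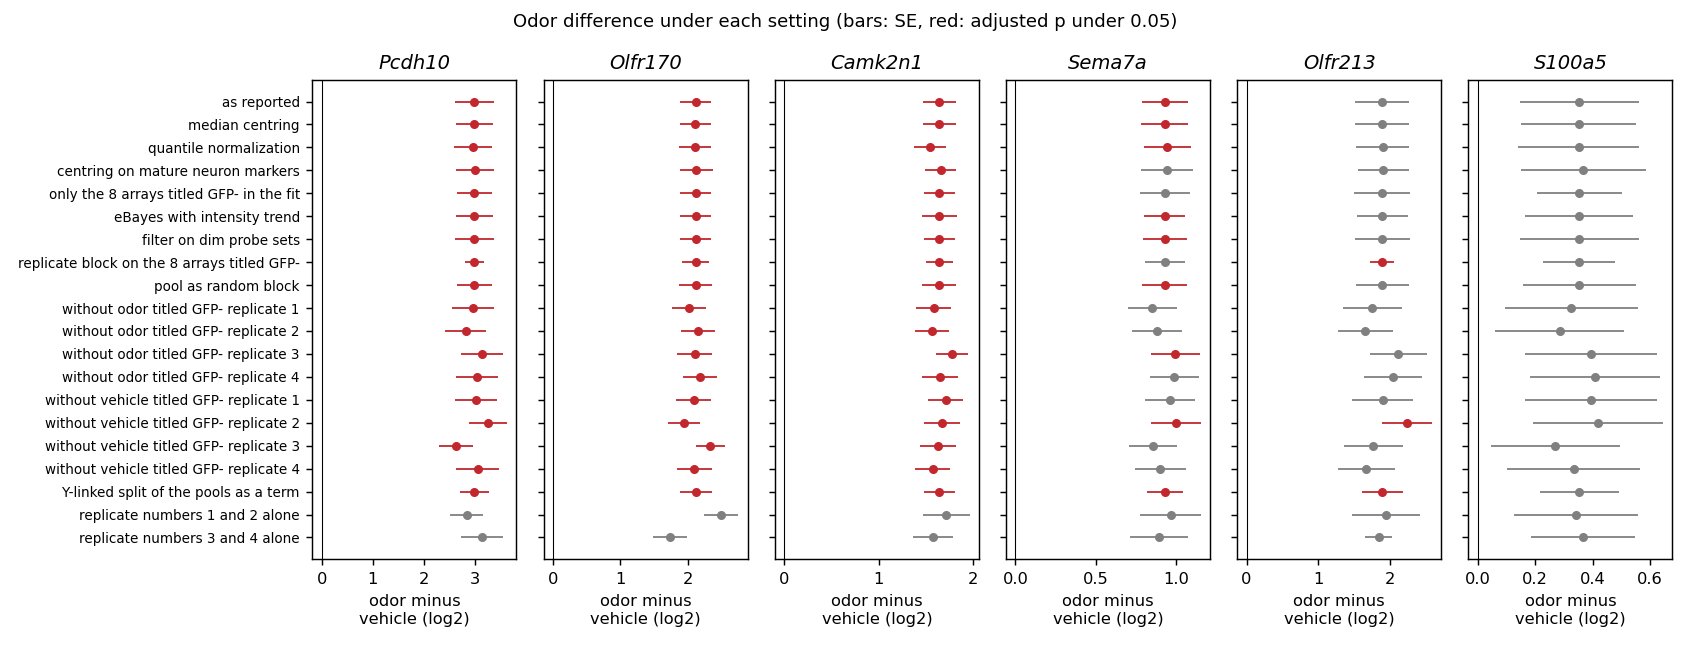
Odor minus vehicle difference (log2, horizontal axes, 1 scale per gene, bars SE) of the 4 called genes, Olfr213 and S100a5 under each way of fitting (vertical axis), red where limma's adjusted p is under 0.05. Pcdh10, Olfr170 and Camk2n1 are red under every setting with at least 3 libraries a side, Sema7a loses its call under several, and all differences stay above 0.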

How the data were processed

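The authors deposited log2 signals, 1 per probe set and array, and the submitters' processing notes name Affymetrix Expression Console. Its version, background correction and normalization were not given in the sources used here. Labelled cRNA came from 50 to 100 ng of RNA, per the labels' protocols. Of 28846 probe sets, 6640 controls (5222 negative) were left out, leaving 22206, of which 19572 had 1 gene symbol and 2634 none. A gene with several probe sets (55 of 19505 genes) is shown by the brightest.

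Groups were taken from titles. limma 3.58.1 (R 4.3.3) was fitted to all 16 arrays as 4 group means, which share 1 estimate of spread, with eBayes (12 residual and 4.49 prior degrees of freedom), no added scaling and no dim filter. It was tested on simulated data. Adjusted p-values were obtained by the Benjamini-Hochberg method across all 22206 probe sets. The fold is 2 to the power of the log2 difference. The number of arrays limits precision.

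The members and 41 lists were chosen with earlier results of these data known. Named genes are S100a5, up to 3 called members of a list (otherwise up to 2 of smallest p), the 10 rises and 10 falls of smallest p without overlap, and 8 receptors each way. Other genes in the text were chosen after their values were seen. The alternatives tried were median, quantile and mature-neuron centring, a fit of 8 arrays, an intensity trend, a dim filter, the replicate block, the pool as a random block, leaving out each library, and, added after seeing the data, the Y-linked split. Same-numbered odor and vehicle pools had correlations of deviations of 0.11, 0.41, 0.20 and 0.07. Differently numbered ones had from -0.30 to 0.19. The main fit was unpaired because the labels describe separate pools for each condition.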

Additional observations from a re-analysis of the deposited data

Results flagged for a closer look

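The difference of Olfr170 between odor and vehicle was unlike in the 2 sorts of the same pools: titled GFP- minus titled GFP+ gave 3.30, and all odor libraries were above all vehicle libraries in the former and below them in the latter.

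In 9 of 208 groups of 4 libraries examined, a library stood apart, its gap to the nearest divided by the group's range being above Dixon's critical value. Chance gives about 1 in 20 groups. Among vehicle libraries titled GFP-, replicate 3 was high for Samd4 (6.52, the next 6.02, ratio 0.895) and replicate 2 was high for Cadm3 (10.57, the next 10.30, ratio 0.838). Vehicle replicate 2 was low for Cluap1 (9.04, the next 9.41, ratio 0.873), for Postn (3.53, the next 4.30, ratio 0.936, below the median negative control) and for Ddit3 (11.58, the next 11.90, ratio 0.904). Among odor libraries titled GFP-, replicate 4 was low for Olfr947-ps1 (6.23, the next 6.76, ratio 0.895) and high for AA986860 (5.39, the next 5.09, ratio 0.831) and Rtp3 (4.00, the next 3.53, ratio 0.841), both below the median negative control. Odor replicate 1 was low for Cacnb2 (14.54, the next 14.75, ratio 0.863).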

How the results depend on the processing

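The count of 4 calls was 4 after median centring, quantile normalization, an intensity trend, a dim filter (13084 probe sets) and with the pool as a random block (correlation 0.234), 3 after mature-neuron centring and in the fit of 8 arrays, and 3 to 5 when a library was left out. With the replicate block the count was 5: Pcdh10, Olfr170, Camk2n1, Olfr213 (adjusted p = 0.0410) and Olfr1186, without Sema7a (0.296). The main fit does not take the numbers to pair the pools. Odor pools 1, 2 and 3 deviated most like the vehicle pool of their number (0.11, 0.41 and 0.20), and odor pool 4 most like vehicle pool 3 (0.19). Pcdh10, Olfr170 and Camk2n1 kept their calls in 8 of 8 other settings and all 8 fits without 1 library. S100a5 kept its sign and stayed uncalled in these, at 0.27 to 0.42. The call for Olfr170 between sorts was the only one in each fit without 1 library.

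On pools 1 and 2 alone 0 probe sets were called, and Ms4a5 (-0.027), Nfix (0.030), Rtp3 (-0.031) and Kirrel3 (0.058) changed sign. On pools 3 and 4 alone 0 were called in both the odor comparison and that between sorts. There Pecam1 (0.033), Adcyap1 (0.079), Cd2 (0.026), Moxd1 (0.032) and Plcb2 (0.17) changed sign. The sign changes listed in this paragraph are those of the named genes defined above. Outside that set, Kirrel2 (-0.08), Lrrc3b (-0.24) and Plxna1 (-0.05) were also below 0 on pools 3 and 4. Fewer samples enter these fits. When a library was left out, sign changes occurred within ranges of -1.52 to 1.11 for Eif2s3y, -0.41 to 1.37 for Kdm5d, -0.21 to 0.022 for Gfap, -0.25 to 0.16 for Kirrel3, -0.00013 to 0.19 for Msx1, -0.26 to 0.010 for Ncam2 and -0.019 to 0.17 for Rtp3; the cause was not tested. None of these genes was called. Signals near the median negative control limit what can be said of dim genes.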

Other observations

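The 2 largest differences on the array belonged to probe sets without a gene name, chosen here after their values were seen, and were not called. TC0200001268.mm.2 measured 11.99, 9.13, 13.07 and 13.75 with odor and 9.38, 3.84, 10.93 and 3.98 with vehicle, a difference of 4.95 with a standard error of 1.49. TC0200001246.mm.2 measured 9.16 to 12.96 with odor, and with vehicle 4.35 in pool 2, 4.88 in pool 4 and 8.76 in pool 1, a difference of 4.34 with a standard error of 1.27. In both, vehicle pools 2 and 4 were low and vehicle pools 1 and 3 high, and odor pool 2 was the lowest of its group and lay inside the vehicle range. Olfr1022, the receptor with the largest difference, at 2.52 (SE 0.78), measured 8.69, 6.54, 8.13 and 8.67 with odor and 5.61, 4.28, 7.80 and 4.28 with vehicle. It too was low in vehicle pools 2 and 4 and was not called.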
